A study of Mus musculus with 8 samples.

Results

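The active-promoter mark H3K4me3, histone H3 trimethylated on lysine 4, was examined at 3 broad domains of the mouse testis, named after the genes Zfp36l1, Brd2 and Tgif1. The domains were found as the listed regions that overlapped 3 windows of the mm9 genome. The windows ran from 81.205 to 81.222 Mb of chromosome 12 (Zfp36l1), from 34.250 to 34.265 Mb of chromosome 17 (Brd2) and from 71.190 to 71.208 Mb of chromosome 17 (Tgif1). Each window held 1 region in each list, 12 listed regions in all, which merged into 3 of the 16519 regions of the series. The domains were selected on the ratio of their KO to their WT width, as ones that kept much of it in testes without H3f3b. Their widths in the 2 genotypes are therefore given as a description, without a test.

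The ChIP-seq libraries came from whole testes of adult C57BL/6 mice that were H3f3b WT/WT (WT) or H3f3b null (KO). H3f3b is one of the genes for H3.3, a histone H3 variant that chromatin takes up independently of replication. There were 2 H3K4me3 libraries per genotype, called WT 66, WT 74, KO 67 and KO 73 after their labels, and the 4 input libraries were not analysed here. The labels do not say whether each number is a separate animal, how the null allele was made, or that cells were sorted. In whole testis, fewer cells of a type and less H3K4me3 per cell cannot be told apart. The lists ran from 10502 regions (KO 67) to 14551 regions (WT 74) and covered from 14.5 to 22.0 Mb. The sequencing depth is unknown, so no counting error can be given for a width.

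Most H3K4me3 regions are short and sit at a single promoter, while broad domains spread over several kilobases from the start into the gene. Such broad domains are known from genes that a tissue transcribes strongly or steadily. Zfp36l1 encodes a zinc finger protein that binds AU-rich elements in messenger RNA and promotes its decay. Brd2 encodes a double-bromodomain protein of the BET family that binds acetylated histones, and Tgif1 encodes a homeodomain repressor that acts with SMAD proteins in TGF-beta signalling. All 3 act on the output of other genes, Zfp36l1 on RNA and the others on chromatin or transcription.

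The promoter sequences are shown because the domains carry a promoter mark, and CG dinucleotides are the sequence feature best known to go with H3K4me3. All 3 symbols matched RefSeq entries, and all 3 genes lie on the minus strand of GRCm38.p6. That build differs from the mm9 of the region lists, so the positions below cannot be set against those of the domains. Each stretch ends, at its 3′ end, before the outermost annotated end of its gene, reads 5′ to 3′ along the gene, and has every CG in capitals. It covers 250 bases for Zfp36l1 (chr12:80113014-80113263), 43 bases for Brd2 (chr17:34122815-34122857) and 250 bases for Tgif1 (chr17:70853533-70853782). The Brd2 stretch is short because the rest of its upstream window lies inside another annotated transcript of the gene.
Zfp36l1: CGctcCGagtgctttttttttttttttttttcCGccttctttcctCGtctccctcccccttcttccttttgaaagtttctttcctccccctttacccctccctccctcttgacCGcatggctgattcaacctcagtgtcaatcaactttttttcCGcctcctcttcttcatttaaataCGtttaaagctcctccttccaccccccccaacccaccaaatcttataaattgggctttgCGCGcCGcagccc
Brd2: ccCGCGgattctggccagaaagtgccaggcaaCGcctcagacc
Tgif1: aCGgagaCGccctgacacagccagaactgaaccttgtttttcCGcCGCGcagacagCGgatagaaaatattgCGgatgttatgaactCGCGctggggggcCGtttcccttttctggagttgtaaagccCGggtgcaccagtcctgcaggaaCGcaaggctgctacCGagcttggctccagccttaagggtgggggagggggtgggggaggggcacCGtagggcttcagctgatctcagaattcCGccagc
The stretches held 10, 3 and 15 CG dinucleotides in this order.

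The RefSeq promoter set used here listed 1 start for Zfp36l1, 3 for Brd2 and 5 for Tgif1. An annotated Brd2 transcript reached further upstream than its 3 listed starts, so the set does not hold every start. Of the 27025 genes in this promoter set, 84.6% had 1 start, 3.93% at least 3 and 0.481% at least 5. The listed starts of Brd2 spanned 2707 bp and those of Tgif1 6755 bp. Over the 300 bases around each start, the Zfp36l1 promoter held 15 CG dinucleotides, more than 65.4% of the 32851 promoters in the set, whose median was 7. The most upstream listed Brd2 start had 32, more than 90.5% of promoters, and the other listed Brd2 starts had 14 and 24. For Tgif1 the 5 starts, from upstream to downstream, had 20, 22, 23, 15 and 2. Of the 9 promoters, 8 thus lay above the median, and the most downstream Tgif1 start did not.

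Short promoter motifs were searched on both strands of the same 300 bases. The TATA box core (TATAAA), which 13.6% of all promoters held, was found in the Zfp36l1 promoter alone of the 9, with its first base 29 bases upstream of the listed start. It can be read in the sequence above, and it overlapped a CCAAT box (CCAAT, on the opposite strand) that began 24 bases upstream. A CCAAT box was also present at the second Tgif1 start, and 37.4% of all promoters held one. The GC box core (GGGCGG, in 35.7% of promoters) was found at the second and the third Brd2 start, once each. The first of these matches began 96 bases upstream of its start, the other 40 bases downstream and on the opposite strand. The GC box core was found 5 times at the third Tgif1 start, where 4 of the matches overlapped another, and once at the fourth. The cAMP response element (TGACGTCA, in 1.79% of promoters) was in none of the 9 promoters. The presence of such letters is a description and does not show that a factor binds there.

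At the Brd2 locus, the BET family gene next to H2-Oa and H2-DMa in RefSeq gene order, 1 unbroken domain was present in every library. It ran from 34253964 to 34260664 in WT 66 (6701 bp) and from 34253785 to 34260281 in WT 74 (6497 bp). In KO 67 it ran from 34254641 to 34260357 (5717 bp) and in KO 73 from 34254622 to 34260540 (5919 bp). Both KO widths lay below both WT widths, with a gap of 578 bp between the genotypes, against differences of 204 bp within WT and 202 bp within KO. The means were 6599 ± 144 bp (WT) and 5818 ± 143 bp (KO; SD, n = 2 each), a log2 difference of -0.18. The KO domain thus kept 88.2% of the WT width, 86.6% in KO 67 and 89.7% in KO 73.

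The Tgif1 domain, at the homeodomain repressor gene between Dlgap1 and Myl12b, was the most even between the KO libraries. It measured 6839 bp in WT 66 (71197200 to 71204038) and 6728 bp in WT 74 (71197402 to 71204129). It measured 5854 bp in KO 67 (71197989 to 71203842) and 5901 bp in KO 73 (71197855 to 71203755). The gap of 827 bp between the genotypes compares with differences of 111 bp within WT and 47 bp within KO. With means of 6783.5 ± 78.5 bp (WT) and 5877.5 ± 33.2 bp (KO; SD, n = 2 each), the log2 difference was -0.21. The KO libraries kept 86.3% and 87.0% of the WT mean.

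The Zfp36l1 domain, the longest of the 3 in WT, was kept unevenly. Its gene, for the RNA decay factor, lies between Rad51b and the predicted gene Gm52006. The domain covered 7602 bp in WT 66 (81210699 to 81218300) and 7518 bp in WT 74 (81210656 to 81218173). It covered 5228 bp in KO 67 (81212427 to 81217654) and 6858 bp in KO 73 (81210876 to 81217733). Both KO values were again below both WT values, but the gap of 660 bp was smaller than the 1630 bp between the KO libraries. The means were 7560 ± 59.4 bp (WT) and 6043 ± 1153 bp (KO; SD, n = 2 each), a log2 difference of -0.32. KO 67 kept 69.2% of the WT mean and KO 73 kept 90.7%, so the share kept differed between the KO libraries by more than at the other domains.

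**Figure D1:**
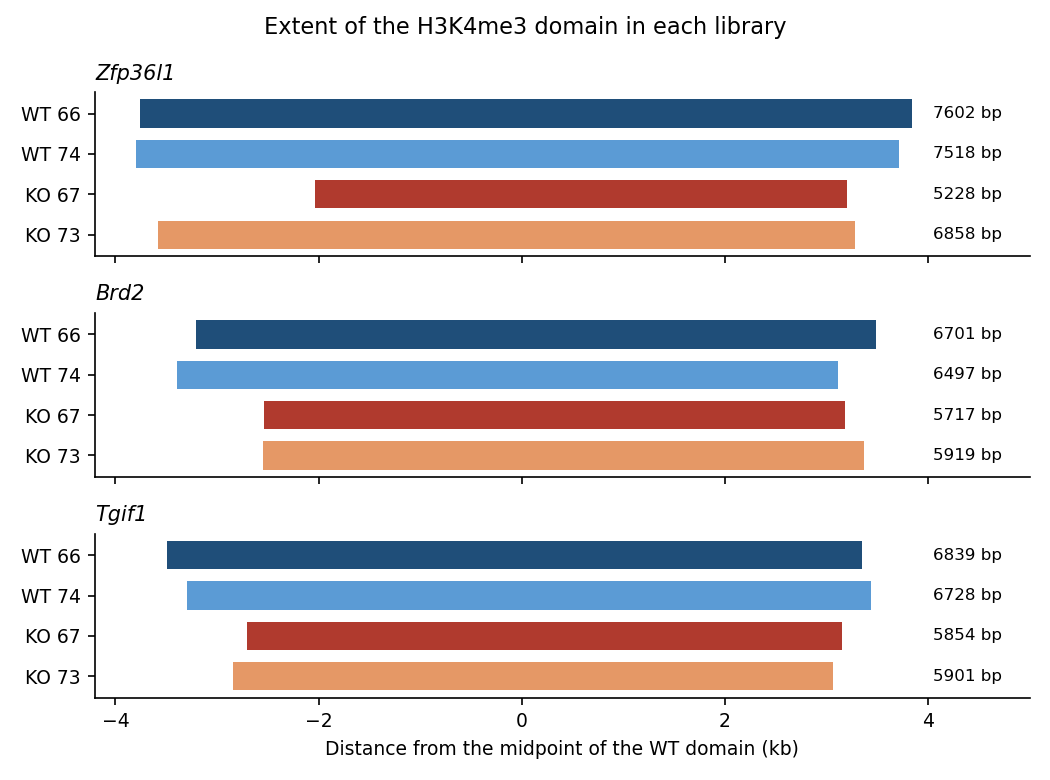
Extent of the domain in each library, as distance in kb from the midpoint of the WT domain, with 1 bar per library and its width in bp beside it. On the deposited widths both KO bars are shorter than both WT bars at each gene, which held at none of the 3 with widths scaled by the library median, and at Zfp36l1 the KO 67 bar (5228 bp) is shorter than that of KO 73 (6858 bp).

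All 3 domains were narrower in both KO libraries than in both WT libraries on the deposited widths, though at none of the 3 on widths scaled by the library median. The same held for 100% of the 49 WT regions of like width described next, and for 47.4% of the 9742 regions found in all 4 libraries. The order depended on how the libraries were scaled. With widths divided by the library's median over those 9742 regions, the KO mean became 104% of the WT mean at Brd2, 102% at Tgif1 and 93.9% at Zfp36l1. The genotypes then overlapped at Zfp36l1 and Tgif1, and at Brd2 both KO values (6246 and 6419 bp) were above both WT values (5972 and 6243 bp). This scaling moved the median log2 difference of all shared regions from -0.18 to 0.05. On the deposited widths, the log2 differences of Brd2 (-0.18) and Tgif1 (-0.21) were thus close to the median of all shared regions.

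Set against WT regions of like width, the 3 domains were among those with the largest share kept. The comparison set was the 49 merged regions with a mean covered length of 5500 to 8000 bp in the WT libraries, the 3 domains included. Brd2 ranked first by the share of WT covered length kept in KO (88.2%), Tgif1 second (86.6%) and Zfp36l1 sixth (79.9%). The median of the set was 53.1%, in a range from 0 to 88.2%, and was 49.3% over the 46 other regions. A share of at least 75% in each KO library was found for Brd2 and Tgif1, but not for Zfp36l1. In the set, 6 of 49 regions (12.2%) met this rule. The count was 12 without KO 67, 11 with scaled widths and 20 when widths were taken from first to last edge. Over all 12560 regions found in both WT libraries, mostly shorter ones, 49.7% met it and the median share kept was 82.6%. The 3 domains thus stood high among wide regions, while their shares (79.9% to 88.2%) lay on either side of the median of regions of all widths. A set chosen for its WT width favours smaller values in the other libraries, and the 3 domains were chosen for the share kept, so these ranks are no test.

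**Figure D2:**
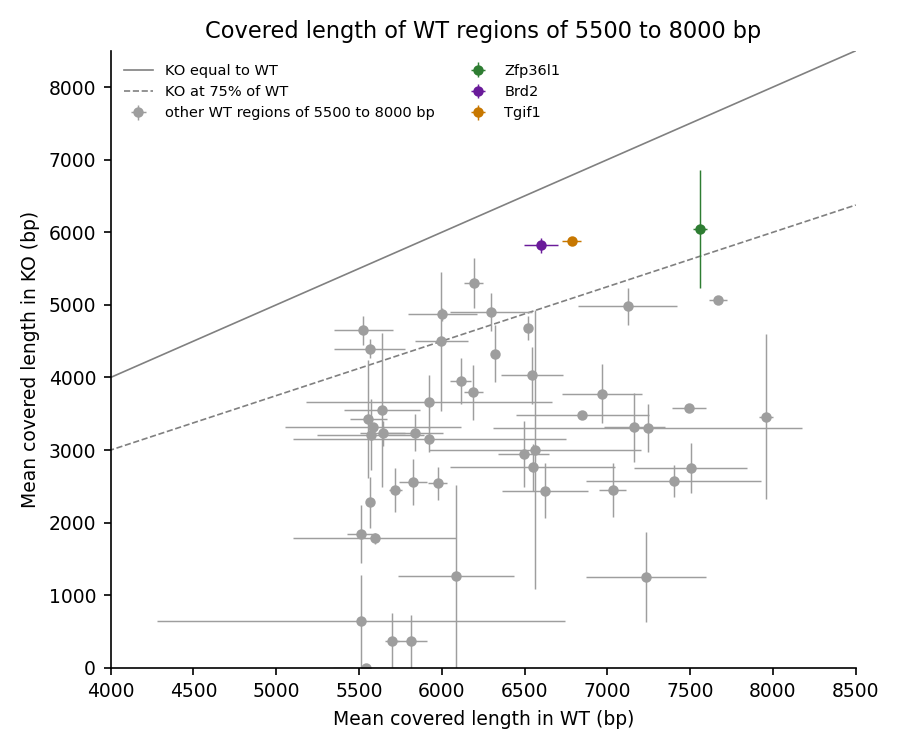
Mean covered length in KO against that in WT, both in bp, for the 49 WT regions of 5500 to 8000 bp, with bars from the lower to the higher library of each genotype. Brd2 and Tgif1 lie between the line of equal length and the dashed line at 75% of WT, and the KO bar of Zfp36l1 crosses the dashed line.

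In single KO libraries the ranks moved. By the share kept in KO 67, Brd2 ranked 2, Tgif1 3 and Zfp36l1 9 of 49. In KO 73, Zfp36l1 ranked 3, Brd2 4 and Tgif1 5. The medians of the set were 50.0% in KO 67 and 55.5% in KO 73. The region with the largest share kept in KO 67 (87.7%) was on chromosome 9 from 108467871 to 108473577. That of KO 73 (91.2%) was on chromosome 19 from 5798571 to 5804918. None of the 3 domains ranked first by this share in either KO library.

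**Figure D3:**
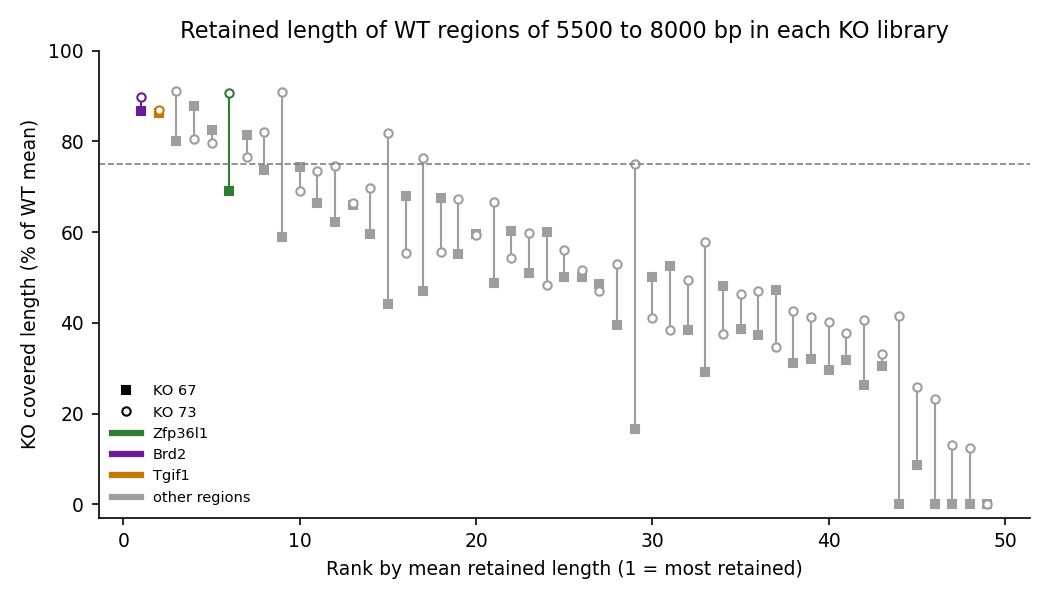
Covered length in KO 67 (filled squares) and KO 73 (open circles) as a percentage of the WT mean, for the 49 WT regions of 5500 to 8000 bp in order of the mean share kept, with the dashed line at 75%. Brd2 and Tgif1 lie first and second with little spread between the KO libraries, and Zfp36l1, the sixth, spans 69.2% to 90.7%.

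The patterns nearest to each domain were sought among the 44 regions of the set that were present in all 4 libraries. The measure was the distance between log2 covered lengths over the 4 libraries. For Brd2 the nearest was Tgif1, at 0.07, and for Tgif1 it was Brd2. Next for both came the region on chromosome 19 from 5798571 to 5804918, at 0.26 from Brd2 and 0.31 from Tgif1. Its values were 6134 bp (WT 66), 6249 bp (WT 74), 4961 bp (KO 67) and 5648 bp (KO 73). The nearest to Zfp36l1 were Tgif1 (0.35) and Brd2 (0.37). All 3 had been chosen by the share kept, so this likeness was in part fixed by the choice.

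By rank of width within a list, the domains were near the top in every library. Zfp36l1 ranked 8 in WT 66 and 15 in WT 74, Tgif1 19 and 25, and Brd2 22 and 28. In KO 67 the ranks were 1 for Tgif1, 2 for Brd2 and 3 for Zfp36l1. In KO 73 they were 2 for Zfp36l1, 3 for Brd2 and 4 for Tgif1. Rank 1 of KO 73 was a region on chromosome 10 from 127528240 to 127535192, named after its values were seen. The merged region that holds it ran from 127527049 to 127535254. It had covered lengths of 8193 bp (WT 66), 8189 bp (WT 74), 6026 bp (KO 67) and 6953 bp (KO 73). In KO 67 it was in more than 1 piece, since the widest single KO 67 region was Tgif1 at 5854 bp. Its WT mean of 8191 bp put it outside the comparison set. The lists differ in length, so the ranks do not by themselves show a change. The domains were chosen on the ratio of KO to WT width, so their high KO ranks were in part fixed by the choice. These ranks are also of single pieces, and 21 regions of the comparison set were in more than 1 piece in KO 67 and 28 in KO 73. Counted on merged regions, 24 regions had a larger WT mean than Brd2, and 3 of them had a larger KO mean. For Tgif1 the numbers were 22 and 2, and for Zfp36l1 11 and 1.

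The deposited score, given to each region by the authors' tool on a scale that is not stated, also ranked the domains high in each list. Tgif1 had scores of 647.3 (rank 11) in WT 66, 637.2 (rank 12) in WT 74, 448.6 (rank 11) in KO 67 and 459.6 (rank 16) in KO 73. Brd2 had 594 (rank 18), 539.6 (rank 32), 434.9 (rank 13) and 537.9 (rank 11) in the same order. Zfp36l1 had 584.4 (rank 19), 560.5 (rank 22), 319.8 (rank 43) and 461.1 (rank 15). KO 67, in which Zfp36l1 was shortest, was also the library in which it ranked lowest by score. These scores were not divided by width, so the rank and the width may not be independent. The raw scores were not compared between lists.

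Divided by width, the scores ranked the domains less high within the whole lists. By score per kb, Tgif1 ranked 2165 of 14078 regions in WT 66, Brd2 2871 and Zfp36l1 4412. In WT 74 the ranks were 2206, 3601 and 4751 of 14551. In KO 67 they were 2623, 2703 and 4873 of 10502, and in KO 73 4091, 2500 and 5493 of 12497. The domains thus ranged from the top 15.2% of a list (Tgif1 in WT 74) to the top 46.4% (Zfp36l1 in KO 67). Zfp36l1 was near the middle of both KO lists, at the top 44.0% in KO 73. Among the 49 regions of like width, Tgif1 ranked 3 by score per kb in WT 66 and 5 in WT 74. Brd2 ranked 6 and 8, and Zfp36l1 18 and 20.

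Within the comparison set, WT score went with the length kept. By the summed WT 66 score, Tgif1 ranked 2, Brd2 6 and Zfp36l1 7 of 49, and by that of WT 74 they ranked 3, 16 and 9. Across the 49 regions, the WT 66 score and the covered length in KO 67 had a Pearson r of 0.77 and a Spearman rho of 0.74. With KO 73 the values were 0.67 and 0.65. With the WT 74 score they were 0.66 and 0.61 for KO 67, and 0.60 and 0.58 for KO 73. For the score per kb of WT 66, r was 0.73 with KO 67 and 0.59 with KO 73, and for that of WT 74 0.70 and 0.60. For the mean WT covered length, r was 0.26 with KO 67 and 0.34 with KO 73. Regions share the same libraries and are not independent, and the 3 domains are among the points. The 10 regions with the highest WT 66 scores kept a median of 73.9% (from 34.9% to 88.2%), and the other 39 kept 46.3%. For WT 74 the medians were 66.5% and 47.8%. The lowest value among the 10 was 34.9% by WT 66 and 34.8% by WT 74. By WT 66 score, 3 of the 10 kept at least 75% in each KO library, against 3 of the other 39. By WT 74 score, it was 2 of the 10 against 4 of the other 39. Whether the score bears on the share kept was not tested.

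On the deposited widths, the 3 domains were shorter in KO at their ends and not by breaking up. The edges and gaps given here and below were not scaled by the library median. With scaled widths, the KO mean was 93.9% of the WT mean at Zfp36l1, 102% at Tgif1 and 104% at Brd2. Each domain was a single piece in all 4 libraries, as were 12 of the 49 regions of the set (24.5%). In both WT libraries, 69.4% of the set were single pieces. Regions in more than 1 piece numbered 10 and 7 in the WT lists (66 and 74), but 21 and 28 in the KO lists (67 and 73). A further 5 regions were absent from KO 67 and 1 from KO 73. Over the 44 regions found in all 4 libraries, the median loss of covered length was 2598 bp. The median part taken by the outer edges was 1556 bp and that taken by gaps inside the region 700.5 bp. For the 3 domains the gaps took 0 bp, and the edges took 781 bp at Brd2, 906 bp at Tgif1 and 1517 bp at Zfp36l1. The domains were chosen on the ratio of KO to WT width, and inner gaps in KO would have lowered it. Their single pieces and lack of gaps were thus in part fixed by the choice.

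Measured from first to last edge, with inner gaps counted as covered, the domains no longer headed the set. In this comparison, added after the data had been seen, Brd2 ranked 8, Tgif1 11 and Zfp36l1 18 of the same 49 regions, and the median share kept was 72.5%. In a separate setting, regions were merged across gaps of up to 1000 bp before the first and last edges were taken. The set then held 80 regions, other ones included, among which the domains ranked 18, 21 and 26. Among the same 49 regions, the first, second and sixth places thus applied to the covered length and not to the distance between the outer edges.

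At Brd2 and Tgif1 the edge of lower coordinates moved more than the high edge in both KO libraries, while at Zfp36l1 this held in KO 67 alone. At Brd2 the low edge lay 757 bp further in on average in KO, while the high edge lay 24 bp further in. The high-edge mean joins 115.5 bp in KO 67 and -67.5 bp in KO 73, where the edge lay outside the WT mean. Both KO low edges were inside both WT low edges, by at least 658 bp, whereas the KO high edges (34260357 and 34260540) fell between those of WT (34260281 and 34260664). At Tgif1 the trims were 621 bp at the low and 285 bp at the high edge, and both KO edges were inside both WT edges, by at least 453 and 196 bp. At Zfp36l1 the mean trims were 974 and 543 bp, from 1749.5 and 582.5 bp in KO 67 and 198.5 and 503.5 bp in KO 73, and the genotypes did not overlap at either edge, by at least 177 and 440 bp.

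The low edge took 96.9% of the mean trim at Brd2 and 68.5% at Tgif1. At Brd2 its share was 86.9% in KO 67 and 110% in KO 73, where the high edge lay outside the WT mean. At Zfp36l1 its share was 64.2% of the mean trim but 28.3% in KO 73 alone, so that without KO 67 the high edge took the larger part. In the 44 regions, the low edge took the larger trim in 20 (45.5%). Low edges were inside those of WT in both KO libraries in 70.5% of the 44, and high edges in 90.9%. Brd2 was thus one of the 4 regions whose high edge did not separate the genotypes, and its high trim was the smallest of the 44. The low edge would be the downstream side of each gene if their strand in mm9 is that of GRCm38.p6, which was not examined.

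The uneven width of Zfp36l1 in KO came from 1 edge. Its low edge was 1749.5 bp inside the WT mean in KO 67 and 198.5 bp inside it in KO 73. The 1551 bp between these KO edges was the 7th largest such difference of the 44 regions, whose median was 292 bp. Its high edge differed by 79 bp between the KO libraries, below the median of 215.5 bp. For the other domains, edges differed within a genotype by 19 to 383 bp at Brd2 and by 87 to 202 bp at Tgif1. The medians within WT were 190.5 bp for low and 228 bp for high edges. Each mean trim exceeded the differences between libraries of a genotype, except at the Brd2 high edge and the Zfp36l1 low edge. These are deposited edges, not scaled by the library median. With scaled widths, at no domain were both KO values below both WT values. The domains were chosen on the ratio of KO to WT width, so the comparison is no test.

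**Figure D4:**
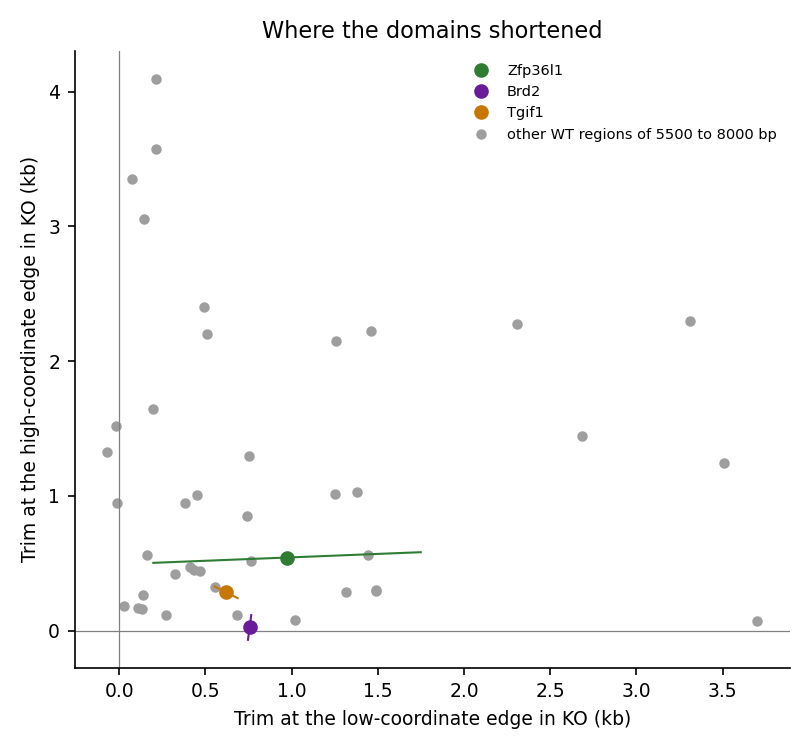
Mean distance in kb by which the KO edge lay inside the WT edge, at the high-coordinate against the low-coordinate end, for the 44 regions of the set found in all 4 libraries, with a line joining KO 67 and KO 73 for the 3 domains. Brd2 lies at a high trim near 0, Tgif1 close to it, and the line of Zfp36l1 is stretched along the low edge. Edges are as deposited, without scaling.

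The surroundings of the 3 domains differed. No other listed region was found within 100 kb of the Tgif1 window, and the nearest lay 134.9 kb from the domain towards higher coordinates (here called above; WT 1451 and 1617 bp, KO 1519 and 1572 bp). Below it the nearest, of 635 bp, lay 437.5 kb away and was listed in WT 74 alone. Such isolation beyond 100 kb held for 6.12% of the comparison set and 13.6% of all regions of both WT libraries. Above Zfp36l1, a region 14.8 kb away had WT values of 1053 and 959 bp and KO values of 1060 and 773 bp. Another, 50667 bp away, had WT values of 661 and 1268 bp and KO values of 912 and 781 bp. At both, the genotypes overlapped. Below Zfp36l1 the nearest region lay 246.4 kb away, with 501 and 631 bp in the WT libraries, and was listed in neither KO library.

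The neighbours of Brd2 did not behave alike. The nearest below it, 83.5 kb away, had WT values of 2501 and 2510 bp and KO values of 2230 and 2362 bp, so that it kept 91.6%. For a region 91151 bp below (WT 1892 and 2088 bp, KO 1404 and 1612 bp) the share was 75.8%. A short one between them (637 and 781 bp in WT) was listed in neither KO library, and one of 643 bp, 80.7 kb above, was listed in KO 73 alone.

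The bounds of the comparison set cut through regions of varied behaviour. Just inside the lower bound, a region on chromosome 7 from 31523257 to 31530000 (WT mean 5512.5 bp) kept 11.6%, and just outside it, one from 29952346 to 29958286 of the same chromosome (5477.5 bp) kept 66.4%. Just inside the upper bound, a region on chromosome 14 from 70604693 to 70613658 (7958 bp) kept 43.5%. Just outside it, one on chromosome 2 from 31936200 to 31944588 (8152 bp) kept 45.5%.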

How the data were processed

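Per the submitters' processing notes, the authors used Bowtie and HOMER and the mm9 build. Not given in the sources used here were versions, settings, filters and the use of the inputs. The deposited files are 1 list per library, so regions were called per library, each with a start, an end and a score whose scale is not stated. The score deposited by the authors served to rank, filter and describe the regions of 1 list at a time.

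Starts were converted to count from 1, and scaffolds and the mitochondrial genome were left out. Overlapping or touching regions of the 4 lists were merged, and a library held a merged region at an overlap of at least 1 bp. Covered length is the number of base pairs of a merged region that a list covers. The share kept is the KO mean over the WT mean. Merging and covered lengths were tested on simulated lists, and 1111 of 1111 regions matched a count base by base. Analyses used Python 3.11.15, pandas 2.3.3 and scipy 1.17.1.

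The 3 domains, the range of 5500 to 8000 bp and the comparisons were chosen with earlier results of these data known. The regions named are the 3 domains, the 2 nearest patterns to each, the nearest regions on each side, all those within 100 kb, and those beside the bounds. Other regions that are named were chosen after their values were seen. Gene positions in mm9 were not used here, so genes related to the 3 were not examined. Names follow the windows, and no region was placed in an exon or intron. Depth is unknown, and with 2 libraries per genotype the spread rests on 1 difference each and may be technical.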

Additional observations from a re-analysis of the deposited data

How the results depend on the processing

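The share kept by the 3 domains was recomputed under 10 alternatives each. Scaling widths by the library median gave 93.9% at Zfp36l1 and turned the direction at Brd2 (104%) and Tgif1 (102%), and the cause was not tested. Without 1 library, the share ran from 69.2% to 90.7% at Zfp36l1, from 86.6% to 89.7% at Brd2 and from 85.9% to 87.4% at Tgif1. The median of the 49 regions, 53.1%, became 45.6% without regions below the 25th percentile of score, 62.7% with scaled widths and 58.5% with gaps of up to 1000 bp merged. It was 72.5% from first to last edge, 28.9% when a library had to cover 50% of the merged region, and from 47.6% to 55.5% without 1 library. The 6 regions kept at 75% in each KO library became 11 with scaled widths, 26 of 80 with gaps merged and 20 from first to last edge. They became 12 at a limit of 60% and 0 at 90%, and from 4 to 12 without 1 library, the 12 without KO 67. The unknown depth limits all widths. No paired analysis was possible because the WT and KO libraries share no replicate number.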
